A study of Mus musculus with 17 samples.

Results

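Gamma-delta (γδ) and innate-like T-cell genes were followed in the thymus of mice with and without the transcription factor Tcf1. The set holds 9 named genes, Cd163l1, Sox13, Zbtb16, Blk, Maf, Etv5, Il23r, Il17a and Il18r1, of which 8 could be read among the 18193 genes with a probe set of 1 symbol. Il23r is only named here. The members were chosen by name, around Cd163l1 and Il18r1, which had been selected on their changes between these groups as among the most changed genes of the series, so the values of these 2 genes are given as a description without a test. The other 6 measured genes were compared between the groups, and where a gene had several probe sets, the one with the highest average over all 17 arrays was read.

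The arrays hold RNA given as homogenized thymus in the labels and as homogenized thymocytes in the methods of the study, 1 mouse per array, from 8 Tcf1-/- mice with a thymic lymphoma (lymphomas), 4 Tcf1-/- mice without a tumor (Tcf1-/- thymi) and 5 Tcf1+/- mice (control thymi). All mice were C57Bl/6. Both Tcf1-/- groups carry the ΔVII allele on both chromosomes and lack Tcf1 in every cell from the germline on, whereas the controls carry it on one chromosome and are not wild type. The study classed mice as tumor-bearing by the number of cells in the thymus, and it described such tumors further by histology, clonality and transfer. It gave the tumor-free Tcf1-/- mice as of similar age to those with tumors. It also sorted the lymphomas by stage of thymocyte development, which the titles do not give for single arrays. The labels give neither age nor sex. Tcf7, the gene that encodes Tcf1, is not analysed here, so the genotypes were not checked again. On these arrays the study found no Tcf7 expression in either Tcf1-/- group.

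γδ T cells leave the thymus with a receptor of a γ and a δ chain in place of the α and β chains of conventional T cells. In the mouse thymus some of them acquire their effector program before they leave, and this holds for the IL-17-producing γδ T cells, which depend on Sox13, Maf and Etv5 and express Blk, Il23r, Cd163l1 (Scart1) and, after activation, Il17a. Innate-like T cells, such as NKT and MAIT cells, share this early programming under PLZF, the product of Zbtb16. IL-18 receptor (Il18r1) is carried by innate-like and effector T cells and by NK cells.

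The start regions of Cd163l1 and Il18r1 are shown because these 2 genes differed most between the groups, that of Sox13 because Sox13 was the member that rose in lymphomas in every setting run, and that of Il17a as the effector gene of the program. Each runs from 250 bases before to 50 bases after the start in RefSeq (GRCm38.p6), 5′ to 3′ on the strand of the gene, at chr7:140218017-140218316 (plus strand) for Cd163l1, chr1:40465302-40465601 (plus strand, the first of 3 starts) for Il18r1, chr1:133424163-133424462 (minus strand) for Sox13 and chr1:20730655-20730954 (plus strand) for Il17a. Capitals mark the ROR motif.
Cd163l1: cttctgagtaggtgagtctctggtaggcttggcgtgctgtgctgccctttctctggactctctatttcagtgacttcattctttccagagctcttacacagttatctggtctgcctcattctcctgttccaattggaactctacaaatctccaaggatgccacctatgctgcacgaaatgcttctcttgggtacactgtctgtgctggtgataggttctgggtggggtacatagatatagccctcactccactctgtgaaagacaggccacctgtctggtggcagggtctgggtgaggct
Il18r1: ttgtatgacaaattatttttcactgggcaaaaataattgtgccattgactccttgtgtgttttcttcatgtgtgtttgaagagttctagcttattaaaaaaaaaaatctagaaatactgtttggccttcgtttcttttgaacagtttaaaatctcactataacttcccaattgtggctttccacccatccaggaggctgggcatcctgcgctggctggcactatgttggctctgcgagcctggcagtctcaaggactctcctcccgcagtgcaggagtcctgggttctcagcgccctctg
Sox13: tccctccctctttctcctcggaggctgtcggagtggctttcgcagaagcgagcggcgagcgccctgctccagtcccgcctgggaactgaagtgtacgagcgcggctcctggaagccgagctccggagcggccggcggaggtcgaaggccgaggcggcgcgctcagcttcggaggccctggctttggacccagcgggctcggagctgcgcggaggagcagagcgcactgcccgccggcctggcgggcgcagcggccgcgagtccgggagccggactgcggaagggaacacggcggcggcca
Il17a: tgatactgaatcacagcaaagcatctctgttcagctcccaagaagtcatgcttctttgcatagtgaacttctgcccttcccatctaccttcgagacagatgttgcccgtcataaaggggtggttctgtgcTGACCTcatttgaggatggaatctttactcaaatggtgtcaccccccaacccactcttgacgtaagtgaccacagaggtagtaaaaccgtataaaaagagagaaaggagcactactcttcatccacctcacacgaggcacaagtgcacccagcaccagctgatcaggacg
Start regions of 6 members were in the table (Il23r and Etv5 besides these 4). They were searched on both strands for CTTTGAA and CTTTGAT, motifs of the TCF/LEF factors to which Tcf1 belongs, and for AGGTCA, a motif bound by ROR nuclear receptors. None held a TCF/LEF motif, which 8.65% of all 32851 start regions of this length hold. The Il17a region held 1 ROR motif, at position -120 from the start and read as TGACCT, and the Il23r region held 2, whereas 16.3% of all start regions hold at least 1. The Sox13 region was rich in CpG, with 73.3% G and C and 40 CpG, while the Cd163l1 region had 50.7% G and C and 2 CpG (median of all start regions 52.7% and 7 CpG).

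Values are log2 signals, so that a difference of 1 is a doubling, and 40% of the probe sets of an array lay below 4.69 to 4.98. The arrays of lymphoma replicates 1 and 2 and of control replicates 1 and 2 stood apart from the other 13, with an interquartile range of 2.93 to 3.06 against 3.49 to 3.75 and a Gapdh signal that was higher at the 3′ than at the 5′ end by 1.12 to 2.63, against -0.13 to 0.96. Y-linked genes were high in 2 of 8 lymphomas, 4 of 4 Tcf1-/- thymi and 4 of 5 control thymi. Since the labels give no sex, what the Y-linked signal stands for was not tested. In RNA of a mixed tissue, fewer cells of a type and less RNA per cell cannot be told apart. The 3 comparisons share their arrays and are not independent of each other. The plot of the members by group shows each thymus.

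**Figure D1:**
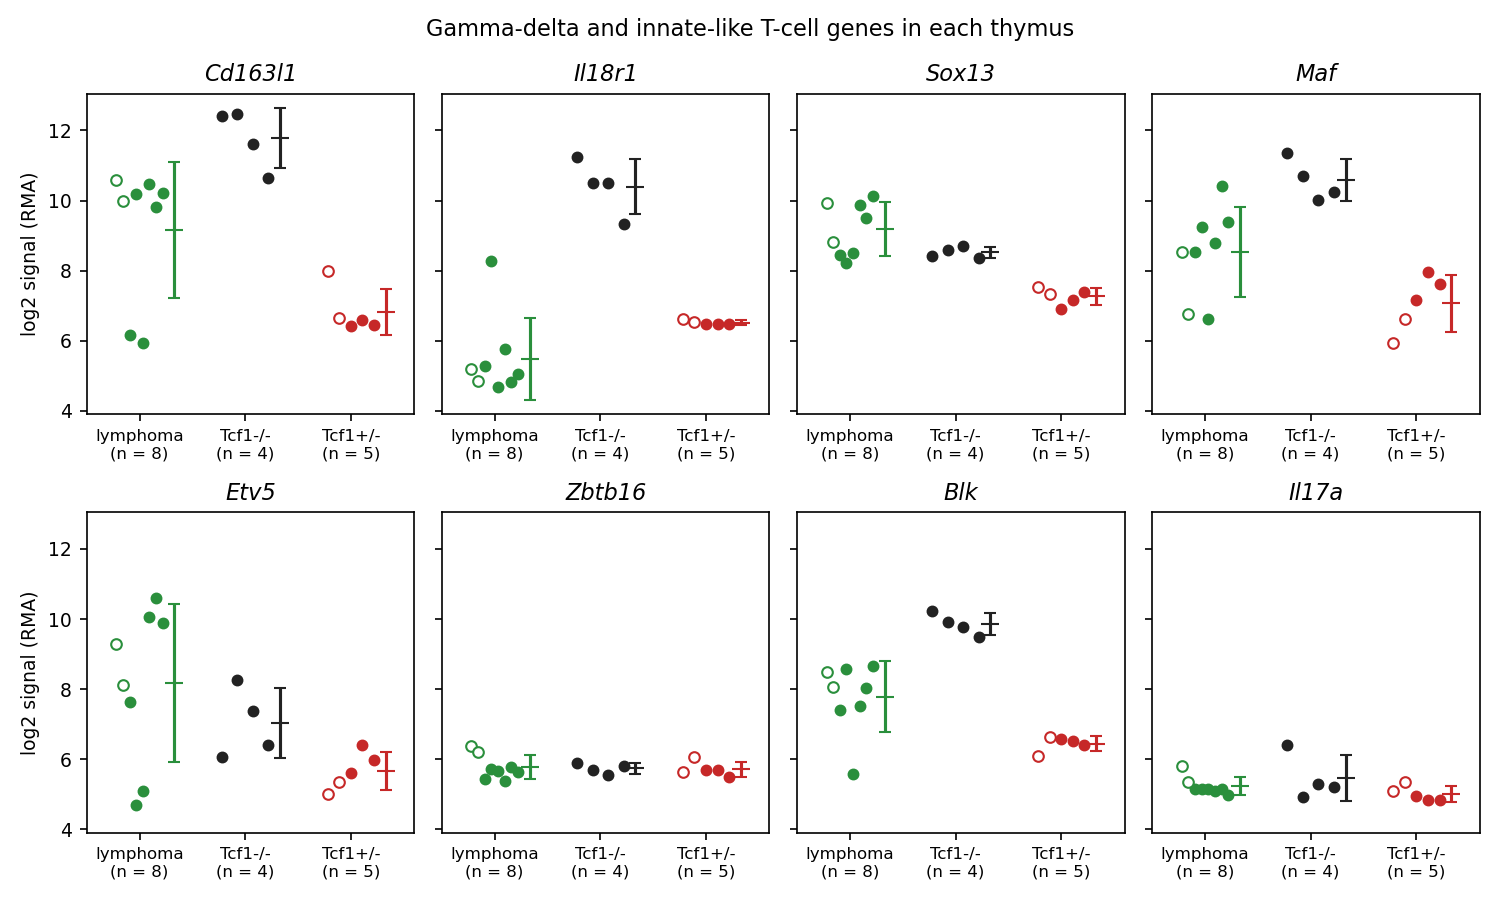
Log2 signal (y axis) of the 8 measured genes in lymphomas (green, n = 8), Tcf1-/- thymi without a tumor (black, n = 4) and Tcf1+/- thymi (red, n = 5), with 1 point per thymus, open points for the 4 arrays that stand apart and the mean ± SD beside them. Cd163l1 lies between 10.64 and 12.46 in Tcf1-/- thymi, above all lymphomas and controls, and Zbtb16 lies between 5.38 and 6.37 in all 17 thymi.

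Cd163l1, which encodes the scavenger receptor-like protein Scart1 of γδ T cells, was the member with the largest difference between Tcf1-/- and control thymi. Its log2 signal was 12.42, 12.46, 11.63 and 10.64 in the 4 Tcf1-/- thymi and 7.99, 6.66, 6.41, 6.60 and 6.44 in the 5 controls. The groups did not overlap, and the means differed by 4.97, or 31.2-fold, the 5th highest difference of 13755 genes tested. Lymphomas fell into a high and a low part, with 6 of them at 9.82 to 10.57 and lymphoma replicates 3 and 5 at 6.17 and 5.93, which is below every control. No lymphoma reached the lowest Tcf1-/- thymus, and the mean of 9.17 ± 1.94 (SD, n = 8) was 2.62 below that of Tcf1-/- thymi and 2.35 above that of controls. The difference from Tcf1-/- thymi was -1.38 with the Y-linked signal as a covariate. Another probe set of Cd163l1 averaged 8.13 in lymphomas, 10.64 in Tcf1-/- thymi and 6.82 in controls, a difference of 3.82 between Tcf1-/- and control thymi.

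Il18r1, the ligand-binding chain of the IL-18 receptor, was highest in Tcf1-/- thymi and lowest in most lymphomas. It read 11.24, 10.49, 10.49 and 9.35 in Tcf1-/- thymi and 6.63, 6.55, 6.47, 6.48 and 6.47 in controls, a difference of 3.87 or 14.7-fold. In lymphomas the lowest, median and highest signals were 4.67, 5.12 and 8.26. Lymphoma replicate 4 carried the highest value, and the other 7 lymphomas, at 4.67 to 5.78, lay below all 5 controls, where the signals differed by only 0.16. These lymphoma signals are near the floor. Il18r1 lay above the 40th percentile in 15 of 17 arrays, and lymphoma replicates 2 (4.86) and 5 (4.67) lay below it. The lymphoma mean of 5.49 ± 1.17 was 4.90 below that of Tcf1-/- thymi, a 29.9-fold difference and the 9th lowest of 13755 genes, and 1.03 below that of controls. With the Y-linked signal as a covariate the difference from Tcf1-/- thymi was -3.46. Cd163l1 and Il18r1, both high in Tcf1-/- thymi, thus lay on opposite sides of the controls in most lymphomas.

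Of the 6 genes tested, 3 rose in Tcf1-/- thymi relative to controls (Sox13, Blk and Maf), none fell and 3 did not pass the test (limma, adjusted p under 0.05 over 13755 genes), and all 4 Tcf1-/- thymi lay above all 5 controls for each of the 3. Over all genes 14.8% were called in this comparison, 10.1% as higher and 4.70% as lower, and 11.2% lay above the controls without overlap. In lymphomas relative to Tcf1-/- thymi 2 of 6 fell (Blk and Maf) and none rose, against 14.7% called over all genes, 6.34% as higher and 8.35% as lower, and Blk was the gene of the 6 whose lymphoma values all lay below, as 6.27% of all genes did. In lymphomas relative to controls 2 of 6 rose (Sox13 and Blk) and none fell, against 12.7% called over all genes, 8.51% as higher and 4.21% as lower, and Sox13 was the gene of the 6 whose lymphoma values all lay above, as 4.78% of all genes did. The plot of differences sets the 3 comparisons side by side.

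**Figure D2:**
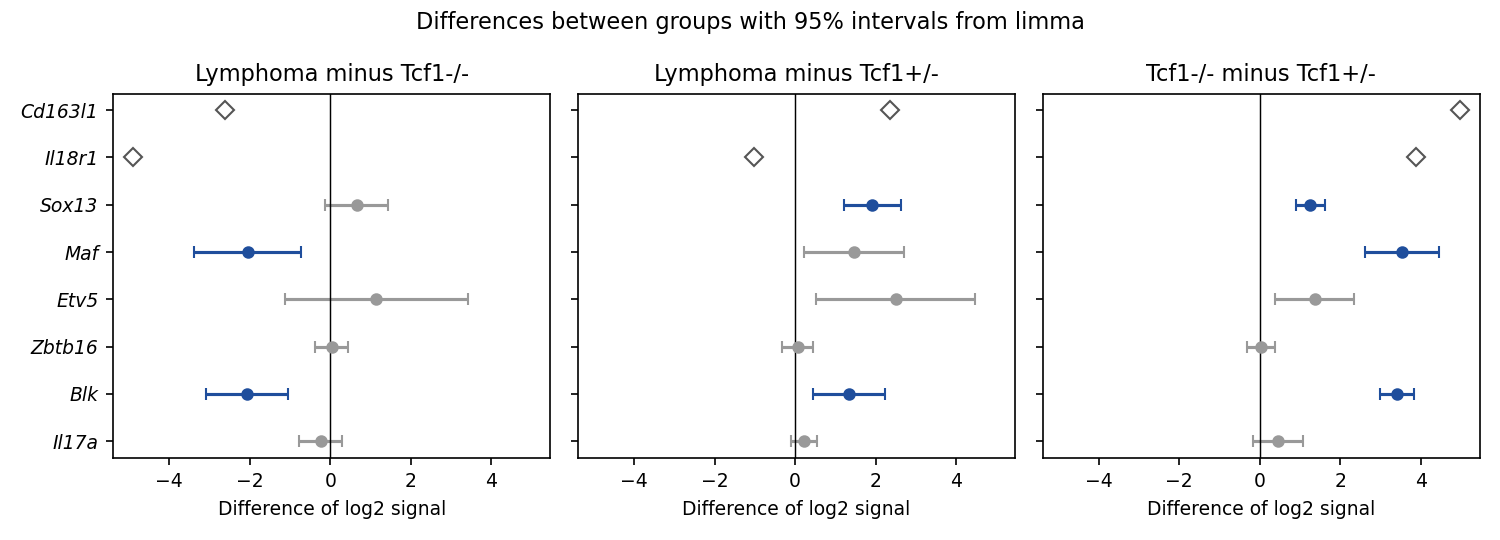
Difference of mean log2 signal (x axis) for each gene (y axis) in lymphomas minus Tcf1-/- thymi, lymphomas minus controls and Tcf1-/- thymi minus controls, with 95% intervals from limma, blue where the adjusted p is under 0.05, grey where it is not and open diamonds without interval for the untested Cd163l1 and Il18r1. Sox13 is at 1.91 in the middle and 1.25 in the right panel, and the interval of Zbtb16 spans 0 in all panels.

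Sox13, an HMG-box transcription factor of early γδ thymocytes, was higher in both groups without Tcf1. Its lowest, median and highest signals in lymphomas were 8.22, 9.17 and 10.13, whereas the 4 Tcf1-/- thymi read 8.42, 8.60, 8.72 and 8.35 and the 5 controls 7.53, 7.34, 6.91, 7.17 and 7.40. Every lymphoma and every Tcf1-/- thymus lay above every control. Sox13 rose by 1.25 in Tcf1-/- thymi (SE 0.16, limma adjusted p = 0.00084) and by 1.91 in lymphomas (SE 0.33, adjusted p = 0.00223) relative to controls. An exact two-sided permutation test gave 0.0159 and 0.00155, the smallest p that these group sizes allow. Between lymphomas and Tcf1-/- thymi the difference was 0.66 (95% interval -0.12 to 1.44, adjusted p = 0.248), with 5 of 8 lymphomas above and 1 below the range of the Tcf1-/- thymi. The rise of lymphomas over controls remained called in all 13 runs that left out 1 mouse and in all other settings run (adjusted p 0.000512 to 0.0233). That of Tcf1-/- thymi over controls was lost by the exact Mann-Whitney U test (adjusted p = 0.0917), as were those of Blk and Maf, a test by which no gene passed in this comparison (2960 at an unadjusted p under 0.05).

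Maf encodes c-Maf, a bZIP factor needed for IL-17-producing γδ T cells that is also expressed by macrophages and other T cells. Its signal in lymphomas ranged from 6.61 over a median of 8.66 to 10.40, against 11.37, 10.71, 10.02 and 10.25 in Tcf1-/- thymi and 5.93, 6.63, 7.17, 7.96 and 7.63 in controls. Maf rose by 3.52 in Tcf1-/- thymi relative to controls, or 11.5-fold (SE 0.42, limma adjusted p = 0.000482; exact permutation p = 0.0159). In lymphomas it fell by 2.05 relative to Tcf1-/- thymi (SE 0.61, adjusted p = 0.0398; exact permutation p = 0.0121), with 7 of 8 lymphomas below the lowest Tcf1-/- thymus. This call did not hold in 8 of 12 runs that left out 1 mouse (adjusted p up to 0.147) and it held in 1 of the 5 other probe sets of Maf. Relative to controls the lymphomas differed by 1.47 (95% interval 0.23 to 2.71, adjusted p = 0.121), with 6 of 8 above all controls. Without lymphoma replicate 5 that difference was 1.74 (adjusted p = 0.0405), and another probe set of Maf gave 2.80 (adjusted p = 0.0215), whereas 1 of its probe sets was flat, at 5.28 in lymphomas, 5.24 in Tcf1-/- thymi and 5.40 in controls.

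Etv5, an ETS-family factor induced by signals of the γδ T-cell receptor, had the widest spread of the members among lymphomas. The lowest, median and highest signals were 4.69, 8.70 and 10.60 in lymphomas, while Tcf1-/- thymi read 6.07, 8.27, 7.36 and 6.40 and controls 5.01, 5.35, 5.60, 6.41 and 5.97. Lymphoma replicates 4 (4.69) and 5 (5.10) lay within or below the control range and the other 6, at 7.62 to 10.60, lay above it. No comparison passed the test, with differences of 2.50 for lymphomas against controls (95% interval 0.53 to 4.47, limma adjusted p = 0.0945), 1.36 for Tcf1-/- thymi against controls (0.38 to 2.34, adjusted p = 0.0680) and 1.14 for lymphomas against Tcf1-/- thymi (-1.14 to 3.42, adjusted p = 0.509). The first would be called without lymphoma replicate 4 (limma adjusted p = 0.0208) or 5 (2.94, adjusted p = 0.0304), the second without Tcf1-/- replicate 1 (1.68, adjusted p = 0.0295). The groups lay closer in other probe sets of Etv5. These averaged 5.78 and 5.88 in lymphomas, 5.35 and 5.70 in Tcf1-/- thymi and 4.96 and 5.07 in controls. The difference of lymphomas from controls was as low as 0.81 there.

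Zbtb16 encodes PLZF, the factor that directs NKT, MAIT and some γδ T cells to an innate-like fate. Its signal was 5.38 to 6.37 in lymphomas, 5.90, 5.69, 5.56 and 5.82 in Tcf1-/- thymi and 5.65, 6.05, 5.69, 5.69 and 5.48 in controls. The groups overlapped throughout, and the differences were 0.036 for lymphomas against Tcf1-/- thymi (95% interval -0.38 to 0.45), 0.066 for lymphomas against controls (-0.32 to 0.45) and 0.030 for Tcf1-/- thymi against controls (-0.31 to 0.37), with limma adjusted p of 0.925, 0.887 and 0.933. The reading depends on the probe set. Another probe set of Zbtb16 had means of 4.41 in lymphomas, 5.52 in Tcf1-/- thymi and 4.71 in controls, a difference of 0.82 between Tcf1-/- and control thymi (adjusted p = 0.00642) and of -1.11 between lymphomas and Tcf1-/- thymi (adjusted p = 0.00202), and it was above the 40th percentile in only 5 arrays.

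Blk, a Src-family kinase of B cells that is also expressed by IL-17-producing γδ T cells, was highest in Tcf1-/- thymi and intermediate in most lymphomas. It read 5.59, 8.04 and 8.65 at the lowest, median and highest lymphoma, 10.24, 9.91, 9.77 and 9.48 in Tcf1-/- thymi and 6.10, 6.63, 6.59, 6.52 and 6.41 in controls. Tcf1-/- thymi lay above all other thymi, and 7 of 8 lymphomas lay above all controls, lymphoma replicate 5 being below them. Blk rose by 3.40 in Tcf1-/- thymi relative to controls, or 10.6-fold (SE 0.19, limma adjusted p = 8.56e-06), fell by 2.06 in lymphomas relative to Tcf1-/- thymi (SE 0.47, adjusted p = 0.0111) and rose by 1.34 in lymphomas relative to controls (SE 0.42, adjusted p = 0.0494). Exact permutation p were 0.0159, 0.00404 and 0.0202. The last of these calls is weak. It was lost in 12 of 13 runs that left out 1 mouse, and with the replicate number as a block, over the 5 pairs of lymphoma and control mice with the same number, the rise was 1.17 (SE 0.43, adjusted p = 0.110). The same arrays without the block gave 1.17 (SE 0.49, limma adjusted p = 0.209). With only lymphoma replicate 5 left out, the rise was 1.65 (adjusted p = 0.000599). The fall relative to Tcf1-/- thymi held in each of the 12 runs that left out 1 mouse and was lost with the Y-linked signal as a covariate (-1.78, adjusted p = 0.211).

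Il17a, the effector cytokine of the program, had group means of 5.23 in lymphomas, 5.46 in Tcf1-/- thymi and 5.01 in controls, near the median signal of the arrays (5.23 to 5.47). It read 4.97 to 5.80 in lymphomas, 6.42, 4.93, 5.28 and 5.22 in Tcf1-/- thymi and 5.10, 5.34, 4.94, 4.83 and 4.83 in controls. Apart from Tcf1-/- replicate 1 at 6.42, all thymi lay at or below 5.80. The differences were -0.24 for lymphomas against Tcf1-/- thymi (95% interval -0.77 to 0.30), 0.22 for lymphomas against controls (-0.11 to 0.55) and 0.46 for Tcf1-/- thymi against controls (-0.16 to 1.07), with limma adjusted p of 0.565, 0.435 and 0.365.

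The pattern of high and low members differed from tumor to tumor, as the heat map of single thymi shows. Lymphoma replicate 5 had Cd163l1, Blk, Maf, Etv5 and Il18r1 below the control mean and, of these genes and Sox13, only Sox13 above all controls, at 8.49. Lymphoma replicate 3 was low in Cd163l1 (6.17) but lay above all controls in Blk (7.40), Maf (8.53) and Etv5 (7.62). Lymphoma replicate 4 also lay above all controls in Blk (8.57) and Maf (9.24) but differed from replicate 3 in Cd163l1 and Etv5, with Cd163l1 at 10.19 and Il18r1 at 8.26 beside the lowest Etv5 (4.69) and the lowest Sox13 (8.22) of the tumors. Lymphoma replicates 1, 6, 7 and 8 had Cd163l1, Sox13, Etv5 and Maf above all controls and an Il18r1 signal below them. The array of replicate 1 is one of those that stand apart. Over the 8 lymphomas, 15 pairs of the 6 tested genes were correlated and none passed after adjustment, a number of tumors at which weaker relations may be missed. All 6 pairs among Sox13, Blk, Maf and Etv5 had a positive r, at 0.412 to 0.865. The closest were Sox13 and Etv5 (Pearson r = 0.865, exact permutation p = 0.00734, adjusted 0.0551; Spearman rho = 0.762, exact p = 0.0368, adjusted 0.276), where r was 0.812 without the 2 tumors farthest from the Sox13 median and 0.888 in the 6 tumors whose arrays did not stand apart. Zbtb16 and Il17a reached r = 0.852 (exact p = 0.0064, adjusted 0.0551; rho = 0.781, exact p = 0.0280, adjusted 0.276), but this rests on lymphoma replicates 1 and 2, whose arrays stood apart, since r was 0.135 without them.

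**Figure D3:**
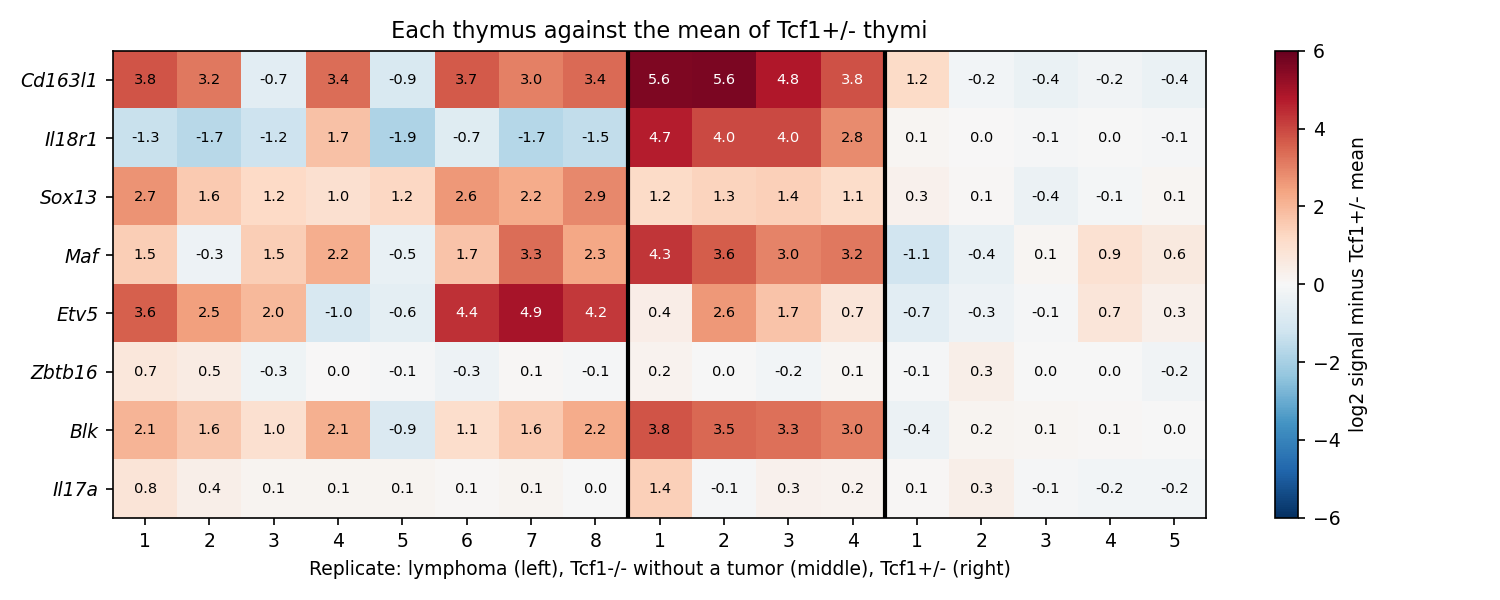
Log2 signal of each gene (rows) in each thymus (columns, by replicate) minus the mean of the 5 Tcf1+/- thymi, red for higher and blue for lower, with lymphomas left, Tcf1-/- thymi in the middle and Tcf1+/- thymi right. Sox13 is above the control mean in all 8 lymphomas, and of the 8 lymphomas replicate 4 is the one with Il18r1 above it.

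γδ receptor genes on the array were Trgv1 and Trgv4, variable segments of the γ chain. Both rose in Tcf1-/- thymi relative to controls, Trgv1 by 3.41 (12.70 ± 0.54 against 9.28 ± 0.61, limma adjusted p = 0.000199) and Trgv4 by 2.92 (12.91 ± 0.41 against 9.99 ± 0.68, adjusted p = 0.000464). In lymphomas Trgv1 averaged 10.85 ± 1.03, where it fell by 1.85 relative to Tcf1-/- thymi (adjusted p = 0.0263) and rose by 1.57 relative to controls (adjusted p = 0.0396). Neither call held without the 4 arrays that stand apart, and the fall was also lost with the Y-linked signal as a covariate. Trgv4 ranged from 5.40 to 12.04 in lymphomas and did not pass in either comparison (adjusted p = 0.103 and 0.870).

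Genes of the type 17 program, the factors and receptors of IL-17-producing lymphocytes, were higher in Tcf1-/- thymi. Of 14 tested, 11 rose relative to controls and none fell, against 10.1% and 4.70% of all genes. The median difference was 1.69 against -0.015 over all genes. The list includes the chemokine receptors Ccr6 (3.38, adjusted p = 0.000158) and Ccr2 (3.26, adjusted p = 0.000137), Serpinb1a (3.37, adjusted p = 0.000225), the aryl hydrocarbon receptor Ahr (2.41, adjusted p = 0.00149) and the paired membrane proteins Tmem176a (2.19, adjusted p = 0.000729) and Tmem176b (2.07, adjusted p = 0.00104). In lymphomas 7 of the 14 fell relative to Tcf1-/- thymi and none rose, against 8.35% and 6.34% of all genes. The median was -1.25 against 0.099 over all genes, with differences of -3.98 for Serpinb1a, -3.84 for Ccr6 and -3.65 for Ccr2. With the Y-linked signal as a covariate 3 of the 14 fell. Relative to controls none of the 14 passed in lymphomas (limma, 1 at an unadjusted p under 0.05), where 12.7% of all genes passed. The median difference was -0.15 against 0.056 over all genes.

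Genes of the type 1 program, which marks interferon-γ-producing T and NK cells, were in part higher in Tcf1-/- thymi. Of 11 tested, 6 rose in Tcf1-/- thymi relative to controls, among them the Fas ligand gene Fasl (3.41, adjusted p = 0.000133), the T-bet gene Tbx21 (2.57, adjusted p = 0.00427) and the chemokine receptor Cxcr3 (2.50, adjusted p = 0.000502), and 1 fell, the costimulatory receptor Cd27 (-1.22, adjusted p = 0.00472). In lymphomas 7 fell relative to Tcf1-/- thymi and none rose. Relative to controls 3 fell, Fasl (-0.88, limma adjusted p = 0.0205), Cxcr3 (-0.83, adjusted p = 0.0172) and Tbx21 (-0.57, adjusted p = 0.0498). With the Y-linked signal as a covariate none of these 3 calls remained. Fasl and Tbx21 averaged 4.41 and 4.65 in lymphomas, below the 40th percentile of every array, and 5.29 and 5.23 in controls, near the array medians (5.23 to 5.47). Over all genes 10.1% rose and 4.70% fell in Tcf1-/- thymi relative to controls. In lymphomas 8.35% of all genes fell relative to Tcf1-/- thymi and 4.21% relative to controls. The medians were 1.39, -1.87 and -0.57 for Tcf1-/- thymi against controls, lymphomas against Tcf1-/- thymi and lymphomas against controls, against -0.015, 0.099 and 0.056 over all genes.

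**Figure D4:**
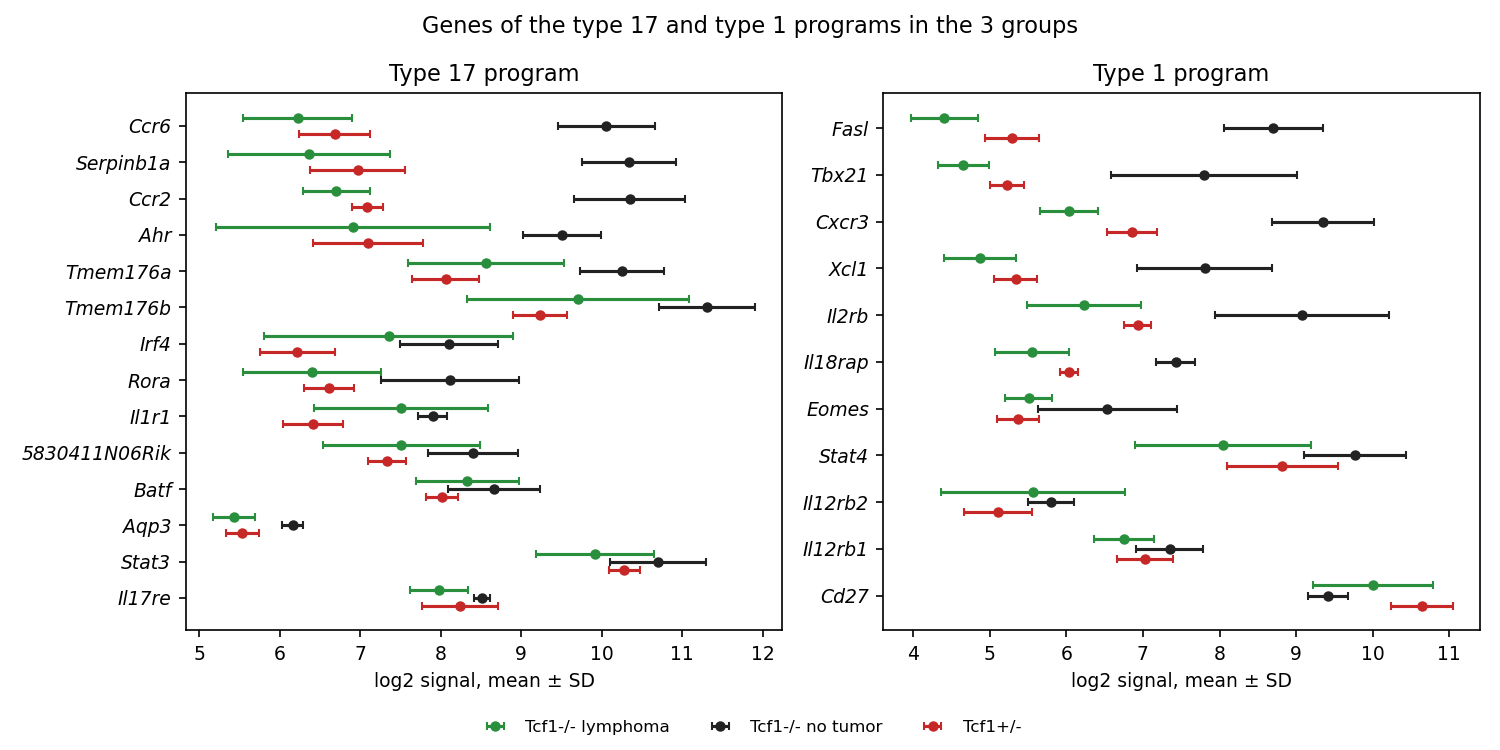
Mean log2 signal ± SD (x axis) of the tested genes of the type 17 program (left) and the type 1 program (right) in lymphomas (green, n = 8), Tcf1-/- thymi without a tumor (black, n = 4) and Tcf1+/- thymi (red, n = 5). Ccr6 averages 6.22 in lymphomas, 10.06 in Tcf1-/- thymi and 6.68 in controls, and Cd27 is the gene of the type 1 program that fell in Tcf1-/- thymi.

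Partners of the members in IL-18, IL-23 and IL-17 signaling were tested for 13 genes. Relative to controls, Tcf1-/- thymi had higher Il18rap, the accessory chain of the IL-18 receptor (1.39, adjusted p = 0.000368), Il18, its ligand (2.17, adjusted p = 0.00386), Il18bp, the soluble inhibitor of IL-18 (1.37, adjusted p = 0.0169), and Traf3ip2, the adaptor of the IL-17 receptor (0.78, adjusted p = 0.0376), while Il17ra, the IL-17 receptor chain, fell by 0.61 (adjusted p = 0.0449). In lymphomas 6 fell relative to Tcf1-/- thymi and none rose, Il18rap (-1.87, adjusted p = 0.000349) and Il18 (-2.36, adjusted p = 0.0109) among them. With the Y-linked signal as a covariate 1 of the 13 fell. Relative to controls 2 fell, Il17ra (-0.96, adjusted p = 0.0177) and Il1rap, the shared accessory chain of IL-1 receptors (-1.05, adjusted p = 0.0227), of which none remained with that covariate and 1 without the 4 arrays that stand apart. The medians of the list were 0.71, -0.79 and -0.26 in the order of comparisons given for the type 1 program. Over all genes 10.1% rose and 4.70% fell in Tcf1-/- thymi relative to controls. In lymphomas 8.35% of all genes fell relative to Tcf1-/- thymi and 4.21% relative to controls.

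PLZF-dependent innate-like cells were followed by 17 tested genes, which did not share a direction. In Tcf1-/- thymi 5 rose and 4 fell relative to controls, against 10.1% and 4.70% of all genes. Those that rose include Cxcr6 (4.35, adjusted p = 0.000416), Klrb1b (3.88, adjusted p = 6.88e-06) and Cd160 (2.97, adjusted p = 0.000198), and those that fell were the SLAM receptor Slamf1 (8.32 in Tcf1-/- and 9.82 in control thymi, adjusted p = 0.00456), its adaptor Sh2d1a (-1.63, adjusted p = 0.0168) and the lipid-presenting molecules Cd1d1 (-0.86, adjusted p = 0.0246) and Cd1d2 (-0.63, adjusted p = 0.0305). In lymphomas Klrb1b (-3.92) and Cxcr6 (-6.17) fell relative to Tcf1-/- thymi and none rose, 2 of 17 against 8.35% of all genes. Klrb1b peaked at 4.24 in lymphomas and 4.30 in controls, both at background, against 7.32 to 8.22 in Tcf1-/- thymi. A gene was tested if it exceeded a level of 4.69 to 4.98, set per array, in 4 or more arrays. Klrb1b passed only through the 4 Tcf1-/- thymi, so this filter fixed the direction of both its calls, which their p-values do not test. Cd160, a receptor of γδ and NK cells, was at 9.60 ± 0.45 in lymphomas, 9.74 ± 0.71 in Tcf1-/- thymi and 6.77 ± 0.20 in controls, and it was 1 of 3 genes of this list that rose in lymphomas relative to controls (2.83, adjusted p = 2.83e-06), with Nfil3 (1.70, adjusted p = 0.00603) and Il17rb (1.07, adjusted p = 0.00309), while Slamf1 (-2.25) and Cd1d1 (-1.07) fell. Both falls were lost with the Y-linked signal as a covariate. Over all genes 8.51% rose and 4.21% fell in lymphomas relative to controls. The medians were 0.20, -0.055 and -0.042 in the same order.

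Regulators of the γδ lineage, of which 14 were tested, changed in both directions in Tcf1-/- thymi. Relative to controls 5 fell, against 4.70% of all genes, including the early response factors Egr2 (-2.40, adjusted p = 0.000158) and Egr1 (-2.24, adjusted p = 0.00226) and the inhibitor Id3 (-1.56, adjusted p = 0.0130), which act downstream of the T-cell receptor, and 2 rose, against 10.1% of all genes, Runx3 (1.95, adjusted p = 0.00226) and Relb (1.43, adjusted p = 0.0245), while 7 did not pass. In lymphomas Relb fell by 1.52 relative to Tcf1-/- thymi (adjusted p = 0.0287), while relative to controls Egr2 (-2.37), Cd5 (-1.77) and Bcl11b (-0.67) fell and Lef1, the TCF/LEF factor of thymocytes beside Tcf1, rose by 1.02 (adjusted p = 0.0223), a call that was lost without the 4 arrays that stand apart. After adjustment for the Y-linked signal the calls of Relb and Lef1 were lost, and 1 of the 3 falls relative to controls remained. The medians were -0.39, 0.019 and -0.44. Of 10 tested relatives of the member factors and of Blk, 2 kinases rose in Tcf1-/- thymi, Fgr (8.59 in Tcf1-/- and 7.58 in control thymi, adjusted p = 0.00209) and Fyn (0.77, adjusted p = 0.0207), and Maff fell by 0.71 (adjusted p = 0.0149), counts to be read against the same shares of all genes. In lymphomas Fgr fell by 1.04 relative to Tcf1-/- thymi (adjusted p = 0.00837) and Fyn rose by 0.77 relative to controls (adjusted p = 0.0130). Neither call in lymphomas remained with the Y-linked signal as a covariate. Beside the lymphoma counts of both lists, 8.35% of all genes fell relative to Tcf1-/- thymi. Relative to controls 8.51% of all genes rose and 4.21% fell.

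Markers of several other cell types differed between the groups in the same directions as these genes, and other marker lists did not. Over all genes 10.1% rose and 4.70% fell in Tcf1-/- thymi relative to controls. In lymphomas relative to Tcf1-/- thymi 6.34% of all genes rose and 8.35% fell. In Tcf1-/- thymi relative to controls 8 of 9 B-cell markers, 10 of 11 macrophage and monocyte markers, 3 of 4 NK-cell markers and 5 of 7 dendritic-cell markers rose and none fell, as did 3 of 5 fibroblast markers, while 8 of 10 thymocyte markers fell. Of 4 markers of type 2 innate lymphoid cells 2 rose, and of 8 thymic epithelial markers 1 fell. In lymphomas relative to Tcf1-/- thymi 8 of 9 B-cell, 9 of 11 macrophage, 4 of 4 NK-cell and 6 of 7 dendritic-cell markers fell and none rose. Of the type 2 innate lymphoid markers 2 of 4 fell, and of the thymic epithelial markers 3 of 8. None of 5 fibroblast markers passed, and 1 of 10 thymocyte markers rose. The mean log2 signal of the B-cell markers, which hold Cd79a and Ms4a1, was 6.10 to 7.11 in lymphomas, 8.91 to 10.76 in Tcf1-/- thymi and 6.41 to 6.91 in controls. That of the macrophage markers was 5.74 to 8.15 in lymphomas, 8.64 to 10.61 in Tcf1-/- thymi and 6.62 to 7.87 in controls, and that of the NK-cell markers 4.45 to 5.41, 7.14 to 8.56 and 5.75 to 6.25 in the same 3 groups. Of the Tcf1-/- thymi, replicate 1 was highest and replicate 4 lowest in all 3 lists, as they were in Blk and Il18r1. The dendritic-cell, type 1 and type 17 lists had the same extremes, while the γδ receptor genes were lowest in replicate 1 and highest in replicate 4. Maf was highest in replicate 1 but lowest in replicate 3, and Cd163l1 was highest in replicate 2 and lowest in replicate 4. None of the 9 B-cell and 11 macrophage markers passed between lymphomas and controls (limma, 0 and 1 at an unadjusted p under 0.05), and the B-cell level of lymphomas overlapped that of controls. In lymphomas 12.7% of all genes passed relative to controls, 8.51% as higher and 4.21% as lower. There 3 of 4 NK-cell, 4 of 7 dendritic-cell and 6 of 10 thymocyte markers fell. Of 8 thymic epithelial markers 1 fell, Psmb11. Of 4 type 2 innate lymphoid markers 1 rose, Il17rb, and none of 5 fibroblast markers passed. The part of these cells in the differences of Blk, Maf, Il18r1 and the programs between any of the 3 groups was not tested. The plot of members beside markers gives both by thymus.

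**Figure D5:**
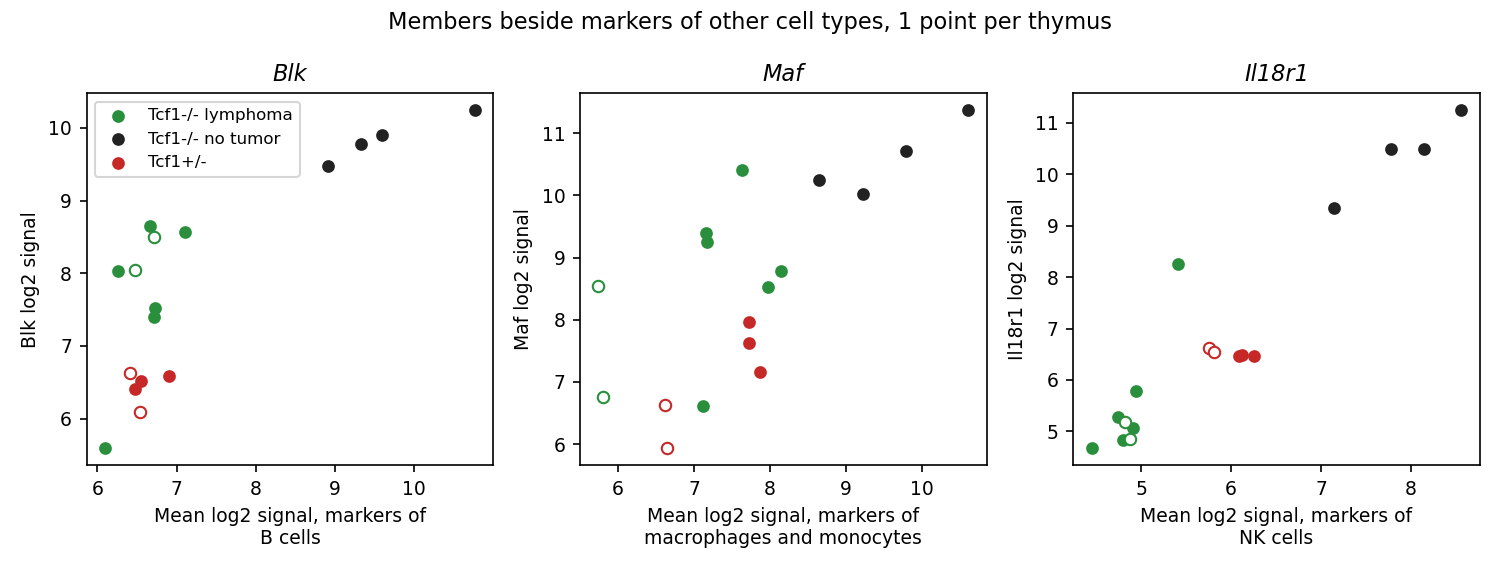
Log2 signal (y axis) of Blk, Maf and Il18r1 against the mean log2 signal (x axis) of markers of B cells, macrophages and monocytes, and NK cells, with 1 point per thymus (lymphomas green, Tcf1-/- thymi without a tumor black, Tcf1+/- thymi red, open points for the 4 arrays that stand apart). The Tcf1-/- thymi lie at the upper right in each panel, and lymphomas and controls share a B-cell level of 6.10 to 7.11.

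The genes most like Cd163l1 over the 17 arrays, by the root mean square difference of centered log2 signals, were Osbpl3 (1.08), Blk (1.12), Plac8 (1.38), Scpep1 (1.41) and Tnfrsf13c (1.41), where the median over 13754 genes was 2.27. Osbpl3 averaged 7.41 in lymphomas, 8.84 in Tcf1-/- thymi and 5.80 in controls. Nearest to Il18r1 were Ccl5 (0.58), Fasl (0.62), H2-Ob (0.62), Ccr6 (0.69) and Ms4a4c (0.71), with a median of 2.20. Ccl5 averaged 7.60 in lymphomas, 12.64 in Tcf1-/- thymi and 9.07 in controls. The 2 sets of 5 genes had no gene in common. These are descriptions over arrays that share their groups, without a test.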

How the data were processed

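RNA of 17 thymi was hybridized to Affymetrix GeneChip mouse genome arrays. Signals were summarized per probe set by the authors with RMA and deposited on the log2 scale. RMA gives arrays a like distribution of signals and so hides a shift of most genes in one direction, and the sources used here do not give whether all arrays were normalized together. Of 45101 probe sets, 64 are controls, 34945 carry 1 symbol in the annotation of the platform, 932 several and 9160 none, and only those with 1 symbol were used. For each gene the probe set with the highest mean was taken. Testing was limited to genes whose signal exceeded the 40th percentile in 4 or more arrays (13755, all 8 measured members among them). Groups were taken from titles and strains, and no column of values was without a sample. The number of arrays limits the precision. The p-values of limma set a difference against the spread between arrays of 1 group, with variances moderated over all genes. In lymphomas and controls that spread also holds the 4 arrays that stand apart.

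Pairs of groups were fitted separately with limma 3.58.1 in R 4.3.3, with Benjamini-Hochberg adjustment over all genes tested and a threshold of 0.05, and the 6 tested members were also compared by an exact two-sided permutation of the arrays (scipy 1.17.1). The fits were tested on simulated data. The members, the gene lists and the tests were chosen with earlier results of these data known. Cd163l1 and Il18r1, whose change led to the choice of the set, were not tested. Named are the members, list genes past the threshold (at most 6 per list and comparison by size, and partners needed for the biology) and the 5 genes most like Cd163l1 and Il18r1. The γδ receptor list was to hold every symbol with the matching prefix. Trdmt1 and Trdn also matched and were left out as they are no receptor genes.

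Lymphoma and control mice share the numbers 1 to 5. After subtraction of group means, arrays with the same number correlated at 0.246 to 0.625 in lymphomas and controls, so that these numbers were read as pairs from the data, the labels not saying what they mark, although the own number was the closest in only 2 of 5 and the arrays that stand apart carry numbers 1 and 2. In the other comparisons the correlations were -0.286 to 0.120. Alternatives were other filters, probe sets, normalizations, variance models, blocks and covariates, a single fit of all arrays, the exact Mann-Whitney U test that the methods name, and leaving out each mouse in turn. The same pairs without the block, and the lists without the arrays that stand apart or with the Y-linked signal, were chosen after seeing the data.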

Additional observations from a re-analysis of the deposited data

Results flagged for a closer look

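In 24 groups of a member and a condition, 4 values lay far from the others of their group by Dixon's criterion, of which chance flags about 1 in 20 groups. Cd163l1 was 7.99 in Tcf1+/- replicate 1, one of the 4 arrays that stand apart, and the nearest control was at 6.66. Blk was 5.59 in lymphoma replicate 5, where the nearest lymphoma was at 7.40. Il17a was 5.80 in lymphoma replicate 1, also one of those 4 arrays, with the nearest lymphoma at 5.36. Il18r1 was 8.26 in lymphoma replicate 4, with the nearest lymphoma at 5.78. Nothing was tested on what sets these thymi apart.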

How the results depend on the processing

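Directions held for Sox13, Blk, Etv5, Cd163l1 and Il18r1 in all settings run. The count of genes called was 2020 for lymphomas against Tcf1-/- thymi, and 584 with the replicate block, 951 in the same arrays without it, 387 with the Y-linked signal as a covariate and 1014 to 2203 when 1 mouse was left out (1014 without Tcf1-/- replicate 1 and 1271 without Tcf1-/- replicate 2). For lymphomas against controls it was 1749, and 686 in the paired arrays without the block, 3753 with the array set as a block, 1122 with the Y-linked signal and 1177 to 1951 when 1 mouse was left out. With the replicate block it was 1785. For Tcf1-/- thymi against controls it was 2037, and 1257 with the replicate block, 0 by the exact Mann-Whitney U test over all genes (2960 at an unadjusted p under 0.05) and 1394 to 2042 when 1 mouse was left out.

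Members called were 2 of 6 for lymphomas against Tcf1-/- thymi. They were 1 without the filter, by the Mann-Whitney U test and without the 4 arrays that stand apart, 0 with the Y-linked signal (limma) and 1 to 2 when 1 mouse was left out. For lymphomas against controls they were 2, and 1 with the replicate block, in the same arrays without it, without the filter, after scaling or quantile normalization, with trended and robust variances, by the Mann-Whitney U test, without the 4 arrays and with the Y-linked signal, 3 with the mean of all probe sets, where Maf passed (1.23, limma adjusted p = 0.0409), and 1 to 4 when 1 mouse was left out. For Tcf1-/- thymi against controls they were 3, and 0 by the Mann-Whitney U test (3 at an unadjusted p under 0.05) and 3 to 4 when 1 mouse was left out. The Blk call lost with the replicate block was also lost in the same arrays without it (limma adjusted p = 0.209). No other call of a member differed with the block.

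Zbtb16 changed sign often. For lymphomas against Tcf1-/- thymi it was -0.61 as the mean of its probe sets (limma adjusted p = 0.0153), -0.75 and -1.11 in its other probe sets, -0.13 without the 4 arrays, -0.17 with the Y-linked signal and -0.049 to 0.092 when 1 mouse was left out. Against controls lymphomas were at -0.20, -0.38 and -0.30, -0.0095 and -0.12 in the same settings, and -0.019 to 0.15 when 1 mouse was left out. Tcf1-/- thymi against controls gave -0.027 with the replicate block and without it in the same arrays, -0.028 after scaling, -0.046 after quantile normalization and -0.027 to 0.12 when 1 mouse was left out. The flat probe set of Maf gave 0.039, -0.12 and -0.16 in the 3 comparisons. Il17a in lymphomas against Tcf1-/- thymi was 0.083 without Tcf1-/- replicate 1 and -0.41 at the lowest. The causes were not tested.

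The share of higher calls moved with the scaling. For lymphomas against Tcf1-/- thymi it was 43.2%, and 54.6% after scaling of the arrays, and for Tcf1-/- thymi against controls 68.2%, and 55.8% after scaling and 46.4% without the 4 arrays. For lymphomas against controls it was 66.9%, and 49.6% with the replicate block and 47.6% without the 4 arrays.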
